A study of Mus musculus with 12 samples.

Results

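The genes described here make sterols and isoprenoids or carry, store and clear cholesterol. They were taken from a table of N6-methyladenosine (m6A) peaks in mouse liver: every named gene whose KEGG annotation there holds the map of steroid biosynthesis, terpenoid backbone biosynthesis or cholesterol metabolism, leaving out genes with names that start with Cyp and 6 genes of lipoprotein assembly and bile transport. Of the genes left out, Abcb11, Apoa1, Apob and Cyp2r1 had peaks under these maps. This gave 52 of 10277 genes and 88 of 17503 peaks. The rule uses annotation alone and no measured value.

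The study compared wild-type with Mettl3-deficient C57BL/6 mice, and its title places the livers after birth. Per the labels there were 12 libraries in 4 groups of 3 replicates, an m6A immunoprecipitate and an input for each genotype, all from poly(A) RNA of liver. The labels give no allele, Cre driver, age or sex, and do not say whether Mettl3 was lost in hepatocytes or in all liver cells. All 10 hepatocyte markers checked (among them Alb, Ttr and Hnf4a) had a listed peak, as did 5 of 7 endothelial, 5 of 6 stellate, 3 of 5 macrophage and 2 of 5 cholangiocyte markers. A listed peak shows RNA at that place, which may come from an overlapping gene, and gives no level.

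Cholesterol is built from acetyl-CoA through mevalonate and farnesyl diphosphate to squalene, which is closed into lanosterol and then trimmed to cholesterol. The same farnesyl unit feeds dolichol, ubiquinone and the lipid anchors of proteins. The liver is the main organ of cholesterol balance: it makes sterol, takes up and secretes lipoproteins and passes sterol to bile, and SREBP2 with its partners SCAP and INSIG sets the pace of synthesis and uptake. METTL3 is the catalytic subunit of the enzyme that writes m6A on mRNA, most often near stop codons and in 3′ UTRs.

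Each peak has a log2 fold change between the genotypes and a false discovery rate (FDR), both computed by the authors. The header does not name the numerator, so the text speaks of negative and positive changes; from the design, negative likely means less m6A in the Mettl3-deficient liver. A peak was called at an FDR of 0.05 or below, and the leading peak of a gene is the one with the smallest FDR. The FDR is given as its log10, with a floor at -434. No value per library was used here, so depth and the spread between mice are unknown and no change is shown to exceed that spread. A change in m6A enrichment is also not a change in RNA level, which was not analysed here.

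Nearly all of these genes carried a called peak, and they split between the signs. By leading peak 28 genes were negative, 23 positive and 1 was not called. As shares, 98.1% were called, 53.8% negative and 44.2% positive, where over all genes 81.1% were called, 47.6% negative and 33.6% positive. Of called genes, 54.9% were negative, against 58.6% in the whole table. Large changes were more often negative, as in the whole table: 22 of the 52 genes (42.3%) were called with a leading change of -1 or below, against 35.3% of all genes, while 3 (5.77%) were called at 1 or above, against 7.81% of all genes. The median leading change was -0.45 (quartiles -1.79 and 0.69), beside -0.52 for all genes. Of the 88 peaks, 38 were negative, 43 positive and 7 not called, where the table as a whole has 76.2% called, 40.6% negative and 35.6% positive.

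**Figure D1:**
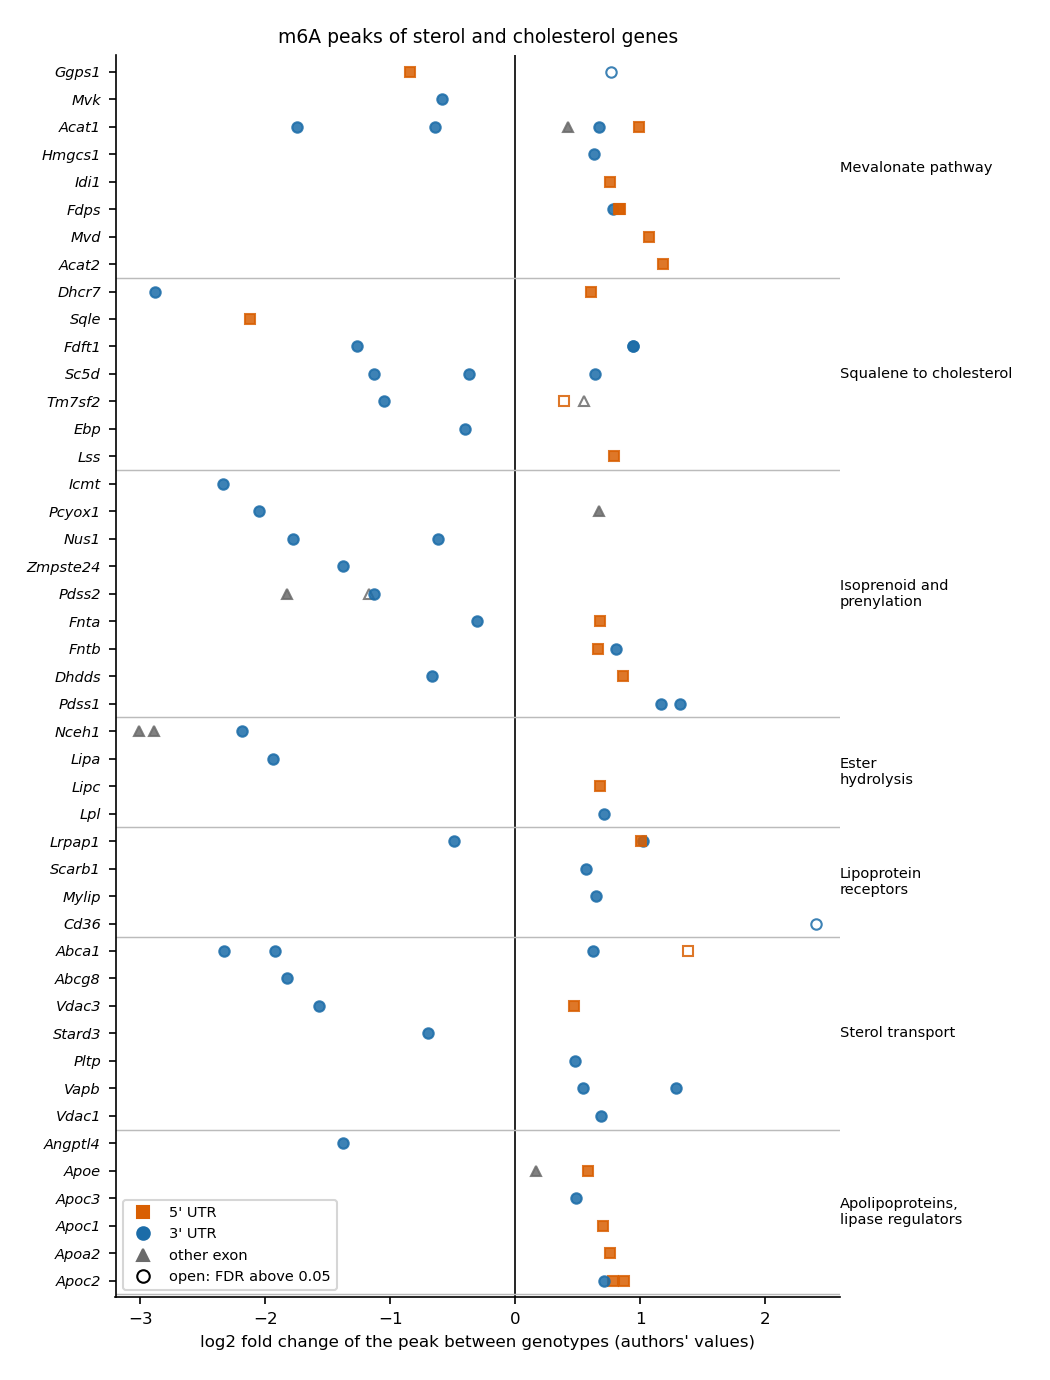
Every listed m6A peak of 45 of the 52 genes, by gene and role (the others are not drawn); the x axis is the authors' log2 fold change between genotypes, the symbols give the annotated feature, and open symbols have an FDR above 0.05. Orange 5′ UTR squares sit at positive values in all but 2 genes, Sqle and Ggps1, and the changes below -1 are mostly blue 3′ UTR circles.

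**Figure D2:**
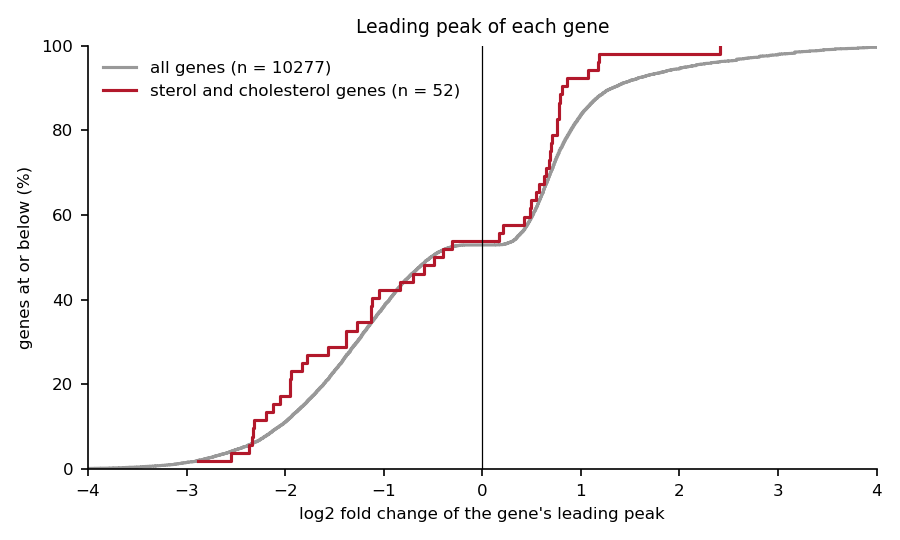
Share of genes (y axis, percent) whose leading peak has a log2 fold change at or below the value on the x axis, for the 52 sterol and cholesterol genes and for all 10277 genes; values beyond 4 in either direction are not drawn. Both curves are flat around 0, and the curve of the 52 genes ends earlier on the positive side, with 1 gene above 1.18.

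The early steps, from acetyl-CoA to farnesyl and geranylgeranyl diphosphate, leaned to the positive side by leading peak. Of 9 genes, 3 were negative (33.3%, against 47.6% of all genes) and 6 positive (66.7%, against 33.6%), with a median of 0.63. With peaks of up to 1000 bp alone, 1 was negative and 4 positive. With the leading peak chosen by the largest change, 4 were negative and 5 positive. The authors' deposited table gives -0.59 in the 3′ UTR of Mvk (mevalonate kinase) and -0.84 in the 5′ UTR of Ggps1, which makes geranylgeranyl diphosphate. A 3′ UTR peak of Ggps1, at 0.77 (authors' deposited table), was not called.

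Hmgcs1, which makes HMG-CoA, stood at 0.63 in the 3′ UTR (authors' deposited table). Farnesyl diphosphate synthase, Fdps, had 0.78 in the 3′ UTR and 0.83 and 0.84 at a pair of overlapping 5′ UTR peaks (authors' deposited table). These values all lie between 0.6 and 0.9 and none reaches 1. For Idi1 (isopentenyl diphosphate isomerase), Mvd (mevalonate diphosphate decarboxylase) and Acat2 (a cytosolic thiolase) the only listed peaks were in the 5′ UTR, at 0.76, 1.07 and 1.18 (authors' deposited table). Acat1, a mitochondrial thiolase that mainly serves ketone and isoleucine metabolism, had 5 peaks, at 0.99, 0.42, 0.67, -0.64 and -1.75 from 5′ to 3′ (authors' deposited table). Its leading peak was the exonic one at 0.42 (log10 FDR -40.9), so its positive entry hides a 3′ UTR peak of the opposite sign and larger size.

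The later steps, from squalene synthase to cholesterol, were mostly negative. Of 8 genes, 7 were negative (87.5%, against 47.6% of all genes) and 1 positive (12.5%, against 33.6%), with a median of -1.20. The median was -0.34 when each gene was given the average of its peaks, and the positive gene is lost with peaks of up to 1000 bp alone. Whether these later enzymes differ from the early ones was not tested, and the features differ as well. Of the 7 negative leading peaks 6 lay in the 3′ UTR, while 3 of the 6 positive ones of the early steps lay in the 5′ UTR. For comparison, the 3′ UTR peak of smallest FDR was taken in every gene that has one, whether or not it leads the gene. Of those called, 62.8% were negative. Dhcr7 (7-dehydrocholesterol reductase, which acts at the end of the pathway) had the lowest value. It stood at -2.88 in the 3′ UTR at chr7:143847211-143847391 (mm10), a ratio of 0.136 at the floor of the FDR scale (authors' deposited table). Dhcr7 also had a called 5′ UTR peak at 0.61 (log10 FDR -1.51) (authors' deposited table).

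Sqle, squalene epoxidase, a rate-limiting enzyme of the pathway, stood at -2.12 (log10 FDR -101) (authors' deposited table). Its peak is labelled 5′ UTR of a retained-intron transcript, 450 bases from that transcript's start. It is the only 5′ UTR peak of the 52 genes with a called change of -1 or below. Fdft1 (squalene synthase) had -1.27 in the 3′ UTR, and an overlapping pair of peaks further downstream at 0.94 each (authors' deposited table). These downstream peaks also lie within the RefSeq span of Ctsb, so the reads could come from either gene. Sc5d (sterol C5-desaturase) stepped from -1.13 through -0.37 to 0.64 over 3 peaks of the 3′ UTR (authors' deposited table), and all were called. Tm7sf2 (a sterol C14-reductase) had -1.05 in the 3′ UTR with a log10 FDR of -2, and 0.39 and 0.55 at uncalled peaks upstream (authors' deposited table). Ebp, the sterol isomerase on chromosome X, had the smallest negative leading change of the group, -0.40 (authors' deposited table). The positive gene was Lss (lanosterol synthase), at 0.79 (authors' deposited table), from a single 5′ UTR peak 3978 bp wide.

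Msmo1, the C4-methylsterol oxidase of the same route, has no KEGG entry in the table and is therefore outside the 52 genes. Its 3′ UTR peak stood at -3.38, a ratio of 0.0961 at the floor of the FDR scale, and its 5′ UTR peak at 0.71 (authors' deposited table). The first of these is lower than any peak of the 52 genes, whose minimum was -3.01. Faxdc2, Hsd17b7, Lbr and Nsdhl, also on the list for this route, and Idi2 and Pmvk of the early steps had no listed peak analysed here.

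The branches that use isoprenoids for other ends were negative in 6 and positive in 3 of 9 genes, with a median of -1.13. As shares, 66.7% were negative and 33.3% positive, against 47.6% and 33.6% of all genes. With peaks of up to 1000 bp alone the split was 4 and 4 and the median 0.18, and with the average of each gene's peaks the median was -0.69. Icmt, which methylates the prenylated end, stood at -2.34, and Zmpste24, a CAAX protease, at -1.38, both in the 3′ UTR (authors' deposited table). Pcyox1, which breaks down prenylcysteine, had -2.05 in the 3′ UTR and a called exonic peak of the other sign at 0.67 (authors' deposited table). The farnesyltransferase α subunit gene Fnta had a small negative leading value of -0.31 with a 5′ UTR peak at 0.68 (authors' deposited table). The β subunit gene Fntb is listed at 0.66 and 0.81 (authors' deposited table), but both peaks lie outside its RefSeq span and within Churc1, and rest on the authors' annotation alone.

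By leading peak, the subunits of paired enzymes did not share a sign. Dolichol synthesis needs NUS1 and DHDDS together. Nus1 stood at -0.62 and -1.78 at 3′ UTR peaks (authors' deposited table), while Dhdds had its leading peak at 0.86 in the 5′ UTR and a second called one at -0.67 in the 3′ UTR. In the 3′ UTR the pair was thus negative in both. The side chain of ubiquinone is made by PDSS1 with PDSS2. Pdss2 was negative at all 3 of its peaks, with -1.13 and -1.83 called and -1.17 not (authors' deposited table). Pdss1 was positive, at 1.17 and 1.32, from a pair of overlapping peaks at the end of the gene that also lie within Abi1 (authors' deposited table). Rce1 and Srd5a3 had no listed peak analysed here.

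Of 7 lipoprotein receptors and their partners 4 were negative (57.1%, against 47.6% of all genes), 2 positive (28.6%, against 33.6%) and 1 was not called. Mylip, a ubiquitin ligase for lipoprotein receptors, was positive at 0.65 (authors' deposited table). So was Scarb1, the HDL receptor, at 0.57 from a 91 bp peak at the end of the gene (authors' deposited table). Lrpap1, a chaperone of the receptor family, had 1.01 in the 5′ UTR, -0.49 in the middle and 1.02 at the end (authors' deposited table). Cd36, a scavenger receptor, had the largest positive value of the 52 genes, 2.41, but was not called (log10 FDR -0.61, authors' deposited table). The group's median of -0.49 rests on Lrpap1 and turned to 0.51 when each gene was given the average of its peaks, and with peaks of up to 1000 bp alone 2 genes were negative and 2 positive.

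Among genes that move sterol within and out of cells, 4 of 7 were negative and 3 positive (median -0.70). As shares, 57.1% were negative and 42.9% positive, against 47.6% and 33.6% of all genes. With peaks of up to 1000 bp alone 3 were negative and 3 positive, with a median of -0.11. Abca1, which loads cholesterol onto nascent HDL, had 4 peaks: 1.38 in the 5′ UTR (not called), then -2.33, -1.92 and 0.62 along the 3′ UTR (authors' deposited table). Abcg8, which forms with ABCG5 the exporter of sterol to bile, stood at -1.83 (authors' deposited table). Stard3, a late-endosomal sterol carrier, stood at -0.70 and its membrane contact partner Vapb at 0.54 and 1.29 (authors' deposited table). Vdac3 was negative at -1.57 in the 3′ UTR with 0.47 in the 5′ UTR, while Vdac1 was positive at 0.69; both encode channels of the outer mitochondrial membrane, and the values are from the authors' deposited table. Vdac2, outside the KEGG maps here, stood at 0.60 and 0.76 (authors' deposited table). Pltp, the phospholipid transfer protein of plasma, had 0.48 (authors' deposited table) at a peak that runs past its end into the span of Ctsa.

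Of the lipases and ester hydrolases, the intracellular ones (2 genes) were negative and the secreted ones (2 genes) positive; the wide peak of Lipc is lost with peaks of up to 1000 bp alone. Nceh1, which hydrolyses cholesteryl esters at the endoplasmic reticulum, had 3 called peaks of one sign, -2.89 and -3.01 in exons and -2.19 in the 3′ UTR (authors' deposited table). The value of -3.01 is the lowest of the 88 peaks. Lipa, the lysosomal acid lipase, stood at -1.94 (log10 FDR -208) (authors' deposited table). Lipc, the hepatic lipase, had 0.68 in the authors' deposited table from a 5′ UTR peak of 128566 bp, which covers 83.4% of the RefSeq span with its introns and has no exact place on the transcript. Lpl stood at 0.71 (log10 FDR -2.26) (authors' deposited table), at a peak that runs past the RefSeq end. These are 4 genes, 2 of each sign by leading peak, where 47.6% of all genes were negative and 33.6% positive. No test was made of the contrast between intracellular and secreted ones. Soat1, Soat2 and Lcat, which make the esters, had no listed peak analysed here.

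Apolipoproteins and regulators of lipases were mostly positive. Of 7 genes 6 were positive (85.7%, against 33.6% of all genes) and 1 negative (14.3%, against 47.6%). The 9 positive peaks ran from 0.17 to 0.87. With peaks of up to 1000 bp alone, 2 genes were positive and 0 negative. Apoc2, an activator of lipoprotein lipase, was listed with 3 peaks at 0.71, 0.78 and 0.87, and the one at 0.78 overlaps both others (authors' deposited table). All 3 also lie over Gm44805, and the one at 0.87 runs into the neighbouring Apoc4. Apoa2 (0.76) and Apoc1 (0.70) each had a single 5′ UTR peak, at the floor of the FDR scale (authors' deposited table), and that of Apoc1 covers the whole gene. Apoc3 stood at 0.49 at a peak of 91 bp at the end of the gene (authors' deposited table). Apoe, the ligand of remnant receptors, had 0.17 in an exon, also at that floor, and 0.58 in the 5′ UTR (authors' deposited table). A change of 0.17 is a ratio of 1.13, so the lowest FDR here goes with the smallest change of the 88 peaks. The negative gene was Angptl4, whose product inhibits lipoprotein lipase, at -1.38 (authors' deposited table). Apoa5, which has no cholesterol map in the table, differed from the apolipoproteins above with -1.82 (authors' deposited table). So did Apob and Apoa1, which the selection left out. Their leading peaks stood at -2.05 and -1.11, both at the floor of the FDR scale (authors' deposited table). Each also had a called 5′ UTR peak of the other sign, at 0.86 and 0.55 (authors' deposited table). All 6 positive leading values of the 7 genes are below 1. Of these, 2, that of Apoe included, turn negative once 0.34, the median of the whole table, is subtracted.

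The genes that sense sterol and set the rate of synthesis are not under these KEGG maps and were read from a separate list of 25 genes. Of these, 19 had a listed peak, and all 19 were called, where 81.1% of all genes were. The leading peak was negative in 14 (73.7%, against 47.6% of all genes) and positive in 5 (26.3%, against 33.6%). Their median was -0.83, beside -0.52 for all genes. By peak, 17 of 33 were negative (51.5%, against 40.6% of all peaks) and 11 positive (33.3%, against 35.6%). All leading peaks but that of Srebf2 lay in the 3′ UTR. Of all genes with a 3′ UTR peak, 55.2% were negative by leading peak and 31.6% positive. Tmem97, a sterol-responsive partner of NPC1, stood lowest at -2.42, at the floor of the FDR scale (authors' deposited table). Insig1 and Insig2, which hold SCAP in the endoplasmic reticulum, stood at -1.96 and -1.87 in the 3′ UTR (authors' deposited table). The proteases that release SREBP were also negative, with Mbtps1 at -1.50 and Mbtps2 at -2.05 (log10 FDR -1.7) (authors' deposited table). The authors' deposited table also has -1.62 for Rnf145, -1.31 for Faf2, -1.28 for Erlin1 and -1.43 for Erlin2, which serve protein degradation at the endoplasmic reticulum. Srebf2, which encodes the master factor SREBP2, was positive at 0.88 in the 5′ UTR and uncalled at 0.51 in the 3′ UTR (authors' deposited table). Scap had a small negative leading value, -0.28, and 1.05 in the 5′ UTR (authors' deposited table). The nuclear receptor genes gave -0.83 for Nr1h4 (FXR), -0.58 for Nr1h3 (LXRα) and 0.36 for Nr1h2 (LXRβ) (authors' deposited table). Acss2, which makes acetyl-CoA, was positive at 1.07, as were Usp20 (0.95) and Gramd1a (0.43) (authors' deposited table).

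**Figure D3:**
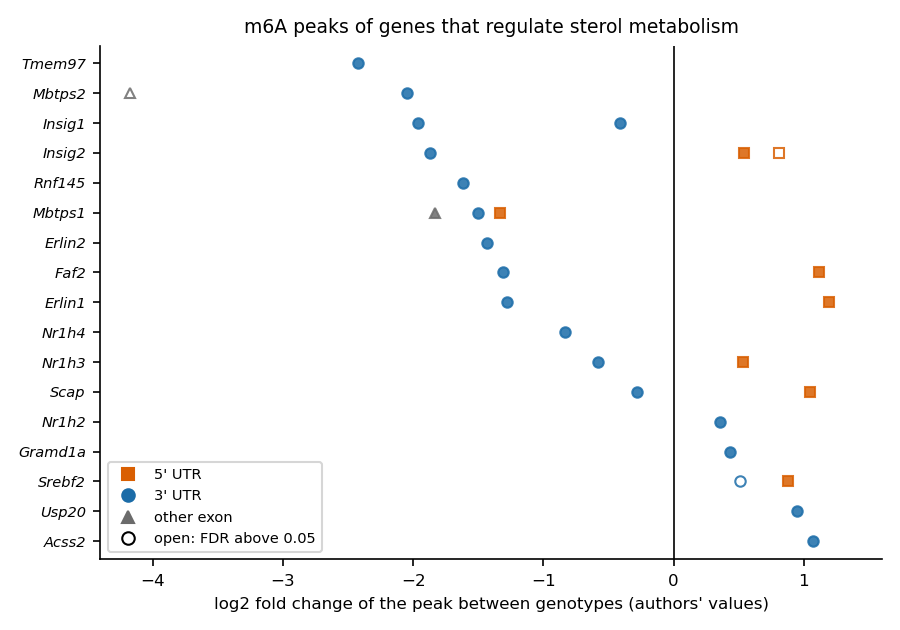
All listed peaks of 17 of the 19 regulators of sterol metabolism, ordered by the leading peak; the x axis is the authors' log2 fold change, symbols and fill as in the plot of all peaks by role. Called 5′ UTR squares are positive in 6 of these genes, 5 of which have a negative leading peak in the 3′ UTR, and negative in Mbtps1; the lowest symbol, an exonic peak of Mbtps2 at -4.17, was not called.

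The annotated feature of a peak went with its sign. In the 5′ UTR 19 of 21 called peaks were positive, with values from 0.47 to 1.18, and 2 negative; in the 3′ UTR 21 were positive and 33 negative; other exons held 3 of each. The negative share of called peaks was thus 9.52% for 5′ UTR peaks and 61.1% for 3′ UTR peaks, where the whole table has 30.1% and 60.4%. Most of the positive 5′ UTR peaks of the 52 genes were wider than 1000 bp, so that label does not place them exactly. Those of Apoc1 and Apoc2 (the one at 0.78) cover 100% of the gene's span. Those of Lipc, Vdac3 and Acat1 cover 83.4%, 46.1% and 41.0%. By gene, 43 of the 52 had a 3′ UTR peak, and 27 of these were negative, 15 positive and 1 not called by leading peak. As shares, 62.8% were negative and 34.9% positive, against 55.2% and 31.6% of all 7263 genes with a 3′ UTR peak. Of the called, 64.3% were negative, close to the 63.6% of all such genes. The 8 genes with 5′ UTR peaks only (Acat2, Apoa2, Apoc1, Idi1, Lipc, Lss, Mvd and Sqle) were positive but for Sqle. In all genes with 5′ UTR peaks only, 33.9% of the called were negative.

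Start sequences are shown for the 4 enzymes of sterol and dolichol synthesis, and for Lrpap1, whose called 5′ UTR peak covers the start, since 5′ UTR peaks were positive more often than 3′ UTR peaks. Those of Apoa2, Apoc2, Apoe and Lipc, also under such a peak, are not shown. They come from RefSeq (GRCm38.p6, the build called mm10) and run from 10 bases before to the 20 transcribed bases from the start on, 5′ to 3′, with the first transcribed base in capitals. The positive values at these peaks were 0.79, 1.07, 0.61, 0.86 and 1.01 in the order shown (authors' deposited table).
Lss (chr10:76531595-76531624, plus strand): cgcctgcgcaGtgcactaggctgtcaggta
Mvd (chr8:122443403-122443432, minus strand): cgtgagtctgTagacaccgggtaatcggtg
Dhcr7 (chr7:143830204-143830233, plus strand): tcaggcaggcActtagaacactgctggaga
Dhdds (chr4:134000863-134000892, minus strand): gtgacgtgttCtttcagcgccaagtcgtaa
Lrpap1 (chr5:35105680-35105709, minus strand): ctagcgcttcAgaggaagatggcgcctcga

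Of the 52 genes, 34 had a start window in the RefSeq table, and in 11 a 5′ UTR peak covered part of the first 50 transcribed bases. As background, antibodies against m6A also bind m6Am, a methylated adenosine at the first transcribed base that another enzyme makes. The first base was A in 6 of these 11 windows, against 34.4% of all 32851 windows. That larger set is not limited to starts under a 5′ UTR peak, and a share of m6Am in these peaks was not tested. Of the 11 peaks 9 were called, all positive, 4 over a start with A and 5 over a start with another base. The RefSeq start need not be the one used in liver, and several genes, Dhcr7 among them, have more than 1 start in the RefSeq table. The letters GGAC, the core of the most common m6A motif, were searched on the transcribed strand of the same 50 bases and stood in 2 of the 11 windows, those of Abca1 and Mvd, against 18.9% of all windows. In Mvd they begin at transcribed base 38, in capitals here.
Mvd (chr8:122443373-122443402, minus strand): ctgggctctctagctcgGGACtccagcatc

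Sterol regulatory elements were searched in the whole windows, from 250 bases before to 50 after the start, as TCACNCCAC on both strands. They stood in 1.24% of all windows and in 2 of the 42 windows of the 34 genes, those of Hmgcs1 and Stard3, at positions -137 and -211 from the start. Both are shown, with the match in capitals, because SREBP is known to bind such letters. Their leading m6A peaks had opposite signs, 0.63 and -0.70 (authors' deposited table). A match is a description of letters and not of binding.
Hmgcs1 (chr13:119690204-119690233, plus strand): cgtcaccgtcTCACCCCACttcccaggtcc
Stard3 (chr11:98358147-98358176, plus strand): cagttcccctTCACTCCACagtgtcaggcc

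Several genes held called peaks of both signs: 10 of the 52 (19.2%), against 12.4% of all genes. Several peaks were listed for 23 of the 52 genes and for 4593 of all 10277. These were Abca1, Acat1, Dhcr7, Dhdds, Fdft1, Fnta, Lrpap1, Pcyox1, Sc5d and Vdac3. Both UTRs were called in 9 genes. In Acat1, Dhcr7, Dhdds, Fnta, Lrpap1 and Vdac3 the gene held a positive 5′ UTR peak beside a negative 3′ UTR one. By the leading peak of each UTR, 5 of the 9 had a positive 5′ UTR with a negative 3′ UTR, 4 were positive in both, and none had the opposite order. In all 1475 genes with both UTRs called, 521 had the first pattern, 86 its opposite, 576 were positive in both and 292 negative in both. The 4 genes positive in both here include Fntb, whose peaks lie outside its RefSeq span. They also include Apoc2, whose leading 5′ UTR peak overlaps its 3′ UTR peak. Subtracting the 5′ UTR value from the 3′ UTR value gave a median of -0.99 over the 9 genes and -0.45 over all.

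**Figure D4:**
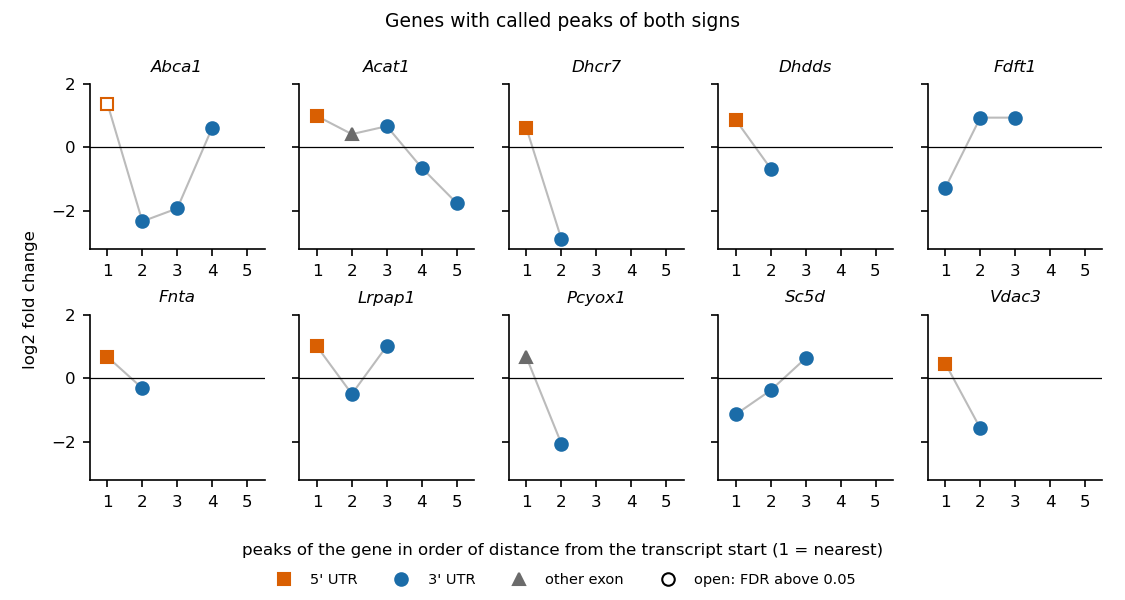
The 10 genes with called peaks of both signs; the x axis numbers the peaks of a gene by distance from the transcript start, the y axis is the authors' log2 fold change, and lines only join peaks of one gene. Dhcr7 goes from 0.61 to -2.88, Acat1 from 0.99 to -1.75, while Abca1, Lrpap1, Fdft1 and Sc5d end on a positive peak.

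Within the 3′ UTR the sign went with the distance from the end of the gene. The measure took the 40 peaks of up to 1000 bp that lie in the RefSeq span and whose strand is known, and the bin of 250 bases was chosen after the values were seen. With the middle of the peak within 250 bases of the RefSeq end, 10 were positive, 3 negative and 2 not called, with a median of 0.64. Further from the end 5 were positive, 19 negative and 1 not called, with a median of -1.12. The 3 negative peaks near the end were those of Zmpste24, Mvk and Ebp. The positive ones include both overlapping peaks of Pdss1, which also lie within Abi1, so the same signal may be counted more than once. They also include the peaks of Lpl and Pltp, whose middles lie past the end, at -37.5 and -22.5 bases. The whole table has the same split, with 26.0% of 1813 called peaks negative near the end and 72.3% of 3392 further away, so the split is not particular to the sterol genes. The peak of Dhcr7 was measured 1109 bases from the end, while the positive peaks of Scarb1, Apoc3 and Vdac1 lay 45, 47 and 134 bases from it. With a bin of 150 bases, 9 positive and 0 negative called peaks were near the end, and with 500 bases 12 and 8. Both counts of positive peaks include the overlapping pair of Pdss1.

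**Figure D5:**
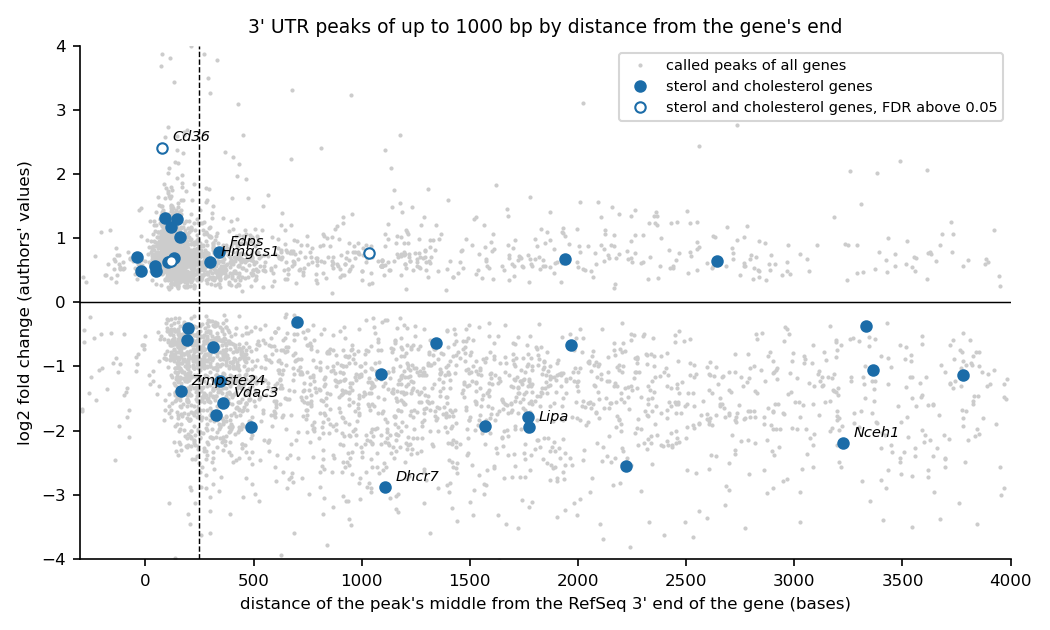
Log2 fold change (y axis) of 3′ UTR peaks of up to 1000 bp against the distance in bases of the peak's middle from the gene's RefSeq 3′ end (x axis), for the sterol and cholesterol genes (blue, open where the FDR is above 0.05) over the called peaks of all genes (grey); 2 peaks, of Vapb and Pdss2, lie beyond the axis, as do grey points past 4 on the y axis. Left of the dashed line at 250 bases most blue points are positive, and the values below -1.5 lie to its right.

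Peaks also differed in how closely they can be placed. Of the 88, 28 were wider than 1000 bp on the genome, introns included, and the median width was 391 bp. In 9 peaks the span overlapped another listed peak of the same gene, and these are not independent. A further protein-coding gene lay under 12 peaks, and whether the authors counted by strand is not given in the sources used here. Counting overlapping peaks of a gene once left 38 negative and 38 positive called peaks.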

How the data were processed

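Stranded libraries were made from poly(A) liver RNA before and after pull-down with antibody to m6A, per the labels' protocols. The submitters' processing notes name HISAT2 2.1.0 and mm10. How peaks were called, filtered and tested between genotypes is not given in the sources used here. The deposited table has a row per peak with the authors' log2 fold change and log10 FDR, both entered as a score because shifted rows mix the columns, and a rounded p-value that was not used. In 189 of 17692 rows no gene was named and the cells were shifted; these were left out.

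Counts, medians and shares were computed with Python 3.11.15, pandas 2.3.3 and numpy 2.4.6, and the steps were tested on simulated data. Planned fits of counts were not run, since no values per library were used, and no new test was made; depth is unknown. All 52 symbols matched RefSeq (GRCm38.p6). Strand came from the RefSeq start table for 34 genes and otherwise from the deposited distance to the transcript start, which gave the same strand in 95.8% of 6211 genes with both; Apoc1 and Fdft1 had none. Genes, gene lists and roles were chosen with earlier results of these data known. Every one of the 52 genes was to be named, with all peaks where it had a called one, except that values of some genes are not reported here; counts and medians include them. Sequences were to come from the gene with the smallest FDR of each role, but most of those leading peaks lie in 3′ UTRs, and no genome sequence was used here, so starts were chosen after the values were seen. Alternatives were stricter thresholds, other leading peaks, single features, narrow peaks, the RefSeq span, centring and each KEGG map.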

Additional observations from a re-analysis of the deposited data

How the results depend on the processing

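No paired analysis was possible because the deposited table holds no values per library; leaving out replicates could not be run either, nor repairing shifted rows, which name no gene. By leading peak, the 28 negative and 23 positive genes were the same in number at an FDR of 0.01, and within 1.5 times under the largest change, narrow peaks, the RefSeq span, centring and with the dropped genes kept in. Requiring a change of 1 left 3 positive genes and 7 positive peaks. With 3′ UTR peaks only, 14 genes and 21 peaks were positive. With 5′ UTR peaks only, 2 genes and 2 peaks were negative and 19 peaks positive. Peaks of up to 1000 bp left 27 positive peaks. The steroid map alone gave 8 negative and 1 positive genes (9 and 5 peaks), the terpenoid map 10 and 9 (15 and 17) and the cholesterol map 11 and 13 (15 and 21). The median leading change of -0.445 turned to 0.03 with the mean over a gene's peaks, to 0.76 in 5′ UTRs and to 0.21 for the cholesterol map. It was -0.495 by the largest change, -0.70 in 3′ UTRs, -0.31 for narrow peaks, -0.49 in RefSeq spans, -0.785 after centring on 0.34, -1.27 and -0.31 for the steroid and terpenoid maps, and -0.54 with the dropped genes. By role, with narrow peaks and the largest change added after seeing the data, the median of the isoprenoid branches turned to 0.175 with narrow peaks, and that of the receptor genes to 0.513 with gene means, 0.605 with narrow peaks and 0.57 by the largest change. Beyond the smaller number of peaks or genes that a setting leaves, the cause was not tested. Choosing the largest change moved the gene counts from 28 and 23 to 27 and 24; depth behind each peak is unknown.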
